A study of Mus musculus with 5 samples.

Results

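The late response of wild-type (WT) mouse skin to a single dose of UVB was read from 2 of the 5 arrays of the series. WT skin 24 h after UVB (1 array) was set against unirradiated WT skin (1 array). A probe was kept when it measured a gene, was not masked on either array and was above background on at least 1 of them, which left 9971 of 34967 gene probes. They gave 7318 named genes of the 18563 with a symbol on the array, each represented by its brightest probe.

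Both groups were hairless albino mice of wild-type genotype, and back skin was sampled in both. The irradiated mice received 1 kJ per square metre of UVB and their skin was collected 24 h later. The unirradiated mice received no UVB, and no sampling time is given for them. The other 3 arrays (WT skin at 3 h, Xpa mutant skin at 3 h and 24 h after the same dose) are cited for a few genes only. The labels do not say how many mice contributed to an array. With 1 array per group there is no test, no standard error and no replicate check anywhere below, and a difference compares 2 arrays. Whole skin was used, so fewer cells of a type and less RNA per cell cannot be told apart.

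UVB is absorbed by DNA, where it links neighbouring pyrimidines. Nucleotide excision repair cuts such lesions out, and p53, a transcription factor switched on by DNA damage, drives genes of cell cycle arrest and cell death. Keratinocytes, the cells of the epidermis, normally leave the basal layer, replace the basal keratins with Krt1 and Krt10, and finish as dead cornified cells with an envelope of crosslinked loricrin, Sprr and Lce proteins, most of them encoded side by side in the epidermal differentiation complex. After injury, keratinocytes switch to another programme with the keratins Krt6, Krt16 and Krt17, secreted alarmins and chemokines, and leukocytes enter the dermis.

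The promoters of the small proline-rich (Sprr) genes are shown because nearly all Sprr genes measured were higher at 24 h, and those of Lce3c and Lce1m because they lie in the same gene complex and differed in opposite directions. Each is the 210 bases before the transcription start, from RefSeq (GRCm38.p6), 5′ to 3′ on the gene's strand. Capitals mark 2 searched motifs, TGANTCA (the AP-1 site, bound by Fos and Jun proteins, whose reverse complement is the same motif) and TATAAA (the TATA box, searched on both strands). The windows are, for Sprr2e, chr3:92351933-92352142 (+), for Sprr2f, chr3:92364977-92365186 (+), for Sprr2h, chr3:92385475-92385684 (+), for Sprr2i, chr3:92407781-92407990 (+), for Sprr1b, chr3:92438780-92438989 (-), for Sprr1a, chr3:92485882-92486091 (-), for Sprr4, chr3:92500494-92500703 (-), for Lce3c, chr3:92944276-92944485 (+), and for Lce1m, chr3:93019062-93019271 (-).
Sprr2e: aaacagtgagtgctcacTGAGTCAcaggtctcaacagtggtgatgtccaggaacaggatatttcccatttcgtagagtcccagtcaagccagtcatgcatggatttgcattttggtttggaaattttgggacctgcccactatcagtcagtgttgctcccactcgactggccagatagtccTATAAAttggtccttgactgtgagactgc
Sprr2f: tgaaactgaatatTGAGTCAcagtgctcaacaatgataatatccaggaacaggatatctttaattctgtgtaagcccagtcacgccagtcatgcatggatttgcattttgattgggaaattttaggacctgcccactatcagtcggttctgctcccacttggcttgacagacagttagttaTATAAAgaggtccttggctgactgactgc
Sprr2h: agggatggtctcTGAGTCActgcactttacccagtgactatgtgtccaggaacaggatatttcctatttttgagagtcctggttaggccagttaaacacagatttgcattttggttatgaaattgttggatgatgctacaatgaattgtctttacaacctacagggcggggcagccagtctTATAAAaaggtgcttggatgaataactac
Sprr2i: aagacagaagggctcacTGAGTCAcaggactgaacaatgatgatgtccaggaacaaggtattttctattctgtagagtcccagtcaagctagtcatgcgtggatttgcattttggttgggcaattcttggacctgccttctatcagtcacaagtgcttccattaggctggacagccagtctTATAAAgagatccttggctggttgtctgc
Sprr1b: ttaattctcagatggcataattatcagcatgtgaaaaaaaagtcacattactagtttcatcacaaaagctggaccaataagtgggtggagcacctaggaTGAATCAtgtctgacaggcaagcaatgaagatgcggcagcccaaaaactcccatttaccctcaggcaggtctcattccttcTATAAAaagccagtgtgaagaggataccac
Sprr1a: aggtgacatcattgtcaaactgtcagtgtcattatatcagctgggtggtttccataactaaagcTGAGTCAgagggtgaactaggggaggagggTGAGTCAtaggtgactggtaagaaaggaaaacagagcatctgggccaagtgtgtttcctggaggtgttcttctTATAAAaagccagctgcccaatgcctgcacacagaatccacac
Sprr4: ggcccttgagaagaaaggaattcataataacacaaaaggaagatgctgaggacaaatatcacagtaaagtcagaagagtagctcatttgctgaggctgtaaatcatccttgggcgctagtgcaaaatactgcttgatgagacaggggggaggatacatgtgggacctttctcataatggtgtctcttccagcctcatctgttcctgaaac
Lce3c: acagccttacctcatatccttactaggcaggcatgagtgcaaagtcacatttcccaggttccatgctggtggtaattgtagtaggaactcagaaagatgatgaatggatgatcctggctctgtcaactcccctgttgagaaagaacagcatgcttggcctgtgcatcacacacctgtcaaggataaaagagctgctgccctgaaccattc
Lce1m: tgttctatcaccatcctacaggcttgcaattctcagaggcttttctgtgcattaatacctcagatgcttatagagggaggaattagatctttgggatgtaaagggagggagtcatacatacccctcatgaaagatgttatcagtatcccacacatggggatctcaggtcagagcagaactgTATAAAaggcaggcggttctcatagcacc

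In the 300-base windows of the RefSeq table, which reach 250 bases upstream of the start, the AP-1 letters were present in 8 of the 9 compared Sprr genes with an entry (88.9%). They were present in 5.71% of the 5862 compared genes with an entry and in 7.91% of all 27025 promoters. Over all 14 Sprr genes with an entry, compared or not, the letters were in 9 (64.3%), and the 5 without them were Sprr2a1, Sprr2a2, Sprr2a3, Sprr3 and Sprr4. The TATA letters were also in 8 of the 9 windows of compared Sprr genes (88.9%), against 8.48% of the compared genes and 14.1% of all promoters. Of these 9 genes Sprr4 was the one that held neither. The compared Sprr2g and Sprr2j-ps had no entry. Whether the letters bear on the differences was not tested. The AP-1 letters began 193 bases before the start in Sprr2d, Sprr2e and Sprr2i, 195 in Sprr2b, 197 in Sprr2f and 198 in Sprr2h. In Sprr1a they began 146 and 116 bases before it, and in Sprr1b 111. Set base against base from the start without gaps, the 15 pairs of compared Sprr2 promoters were identical at 32.9% to 91.9% of positions (median 41.0%), the most alike being Sprr2d and Sprr2e. The Sprr2 genes are a family of related copies, so their motifs are not separate observations. None of 5 Lce3 windows and none of 10 Lce1 windows held the AP-1 letters, whereas those of Lor and Flg2, both lower at 24 h, did, beginning 48 and 69 bases before the start. A match is a description of letters, and binding was not measured. The 4 stress keratin genes Krt6a, Krt6b, Krt16 and Krt17 were not in the promoter table.

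**Figure D1:**
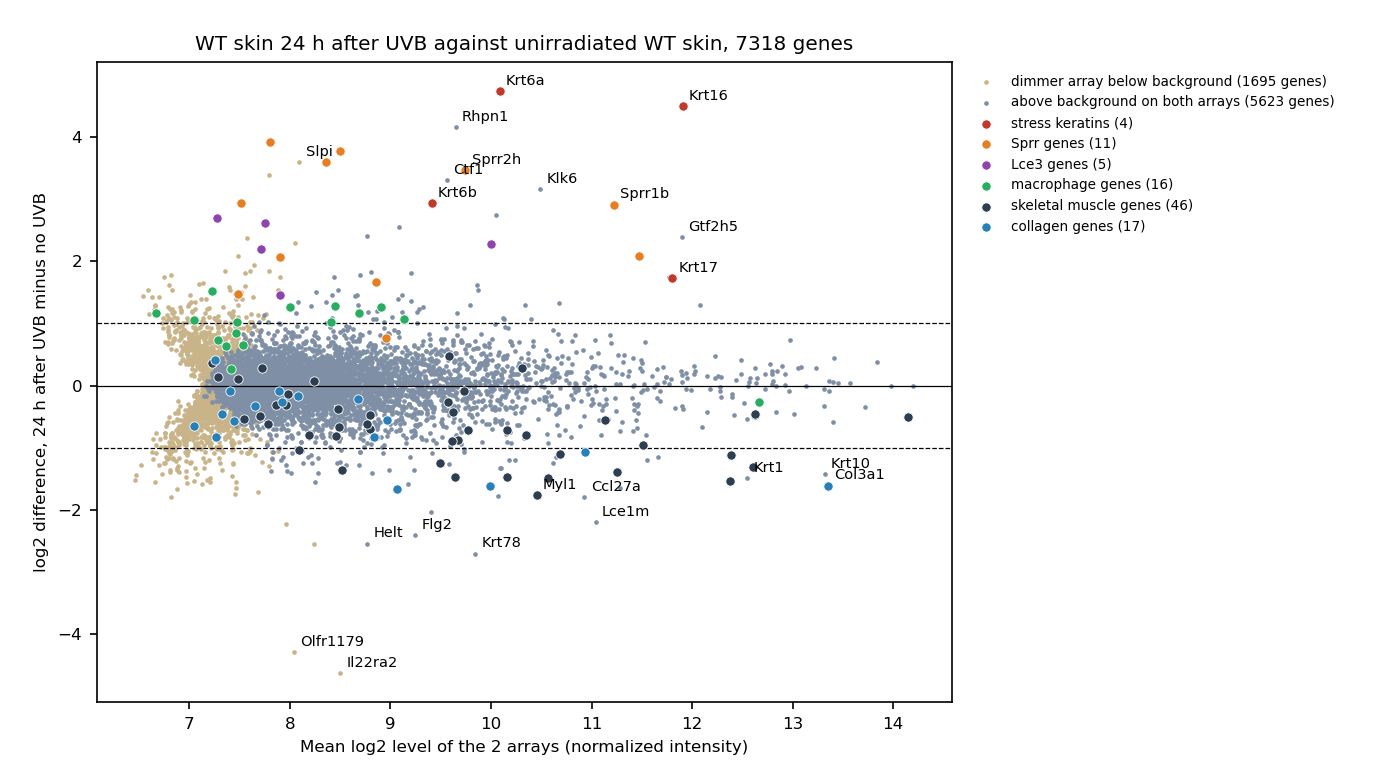
Each point is 1 of 7318 named genes. The horizontal axis is the mean log2 normalized intensity of the 2 WT arrays, the vertical axis the log2 difference (24 h after UVB minus no UVB), and dashed lines mark 2-fold. The stress keratins and all Sprr genes but Sprr4 lie above the upper dashed line, Krt78, Flg2 and Lce1m lie low among the genes measured on both arrays, and the funnel at the left shows genes whose dimmer array was below background.

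Of the 7318 genes, 181 (2.47%) were at least 2-fold higher at 24 h and 165 (2.25%) at least 2-fold lower. On the dimmer array 113 of the higher and 95 of the lower ones were below background, and such a gene passed the filter only through its bright array. Among the 5623 genes above background on both arrays, 68 (1.21%) were at least 2-fold higher and 70 (1.24%) lower. Every list count below is to be read beside these shares. The larger differences were on the higher side, with 14 genes at least 4-fold higher against 5 lower, and 6 at least 8-fold higher against 0 lower. The median log2 difference over all genes was 0.0, and its robust SD 0.39 (0.32 for genes above background on both arrays). Split into 4 equal groups by level, the brightest group held 43 of these 68 higher and 41 of these 70 lower genes.

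Technical spread was small beside the largest differences. Spots of the same spiked control probe (25 probes with 10 spots each) differed with a median SD of 0.14 on the array at 24 h and 0.12 on the unirradiated array, in log2 units. A second probe above background on both arrays existed for 355 genes, and 2 probes of a gene differed with a robust SD of 0.3. Of the 7 such genes at least 2-fold different, 5 had the median of their other probes on the same side of 0. In 3 of the 7 that median was at least 2-fold the same way. Ttn, 1 of the 5, had other probes between -1.16 and 0.52. For the genes whose second probe is on the other side, Elovl7 (1.07 and -0.07) and Klhdc4 (-1.35 and 0.49), the direction is uncertain. Local background had a median of 92 intensity units at 24 h and 94 without UVB, and 24.4% and 25.2% of gene probes were above background. As a check of the labelled tissue, the epidermal genes Krt5, Krt14 and Krt10 were bright on both arrays. Of 11 melanocyte genes 10 were below background or masked on both. Most gene probes were below background too, so this is no check of the tissue or the strain.

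The stress keratins gave the highest values. All 4 were above background on both arrays and all 4 were at least 2-fold higher at 24 h (median log2 difference 3.72, against 0.01 over all genes above background on both arrays). Krt6a, a type II keratin of wounded and hyperproliferative epidermis, had a log2 level of 12.45 at 24 h and 7.72 without UVB, 26.4-fold higher. Krt16, its type I partner, had 14.15 at 24 h and 9.66 without UVB, 22.6-fold higher. Krt6b was 7.69-fold higher (10.88 against 7.94) and Krt17, a type I keratin of hair follicle and wounded skin, 3.31-fold (12.67 against 10.94). Krt6a and Krt6b are close copies, and how far each probe reads the other gene was not tested. The spots of Krt16 and Krt17 without UVB and of Krt6b at 24 h carried a C flag, a quality flag. With only good or low-signal flags 1 of the 4 genes, Krt6a, was left. Over time the log2 level of Krt6a was 7.72 without UVB, 9.3 at 3 h and 12.45 at 24 h, and that of Krt16 was 9.66, 12.55 and 14.15, each step upward. Krt6b was 7.94 without UVB and 7.51 at 3 h, and high at 24 h alone among the WT arrays. In Xpa mutant skin at 24 h, for which no unirradiated mutant array was analysed here, Krt6a had 11.32 and Krt16 12.85.

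The keratins of normal epidermis lay on the other side. All 7 compared were above background on both arrays, and 3 of them passed 2-fold, each on the lower side (median -0.91). Krt78, a keratin of differentiated epidermis, had a log2 level of 8.49 at 24 h and 11.19 without UVB, 6.5-fold lower and the lowest difference of any gene above background on both arrays. Krt1 (11.8 against 13.29) was 2.82-fold lower and its partner Krt10 (12.61 against 14.03) 2.68-fold lower. The basal pair split under 2-fold, Krt14 at 13.34 against 12.61 and Krt5 at 13.11 against 13.7. So the suprabasal pair was lower, and the basal keratins differed by less than 2-fold in opposite directions.

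In genomic terms both kinds of keratin come from the same 2 clusters. In the type I cluster 8 of 27 genes were compared, with 3 higher (Krt16, Krt17 and Krt25, the last below background without UVB) and 1 lower (Krt10). In the type II cluster 10 of 27 were compared, with 2 higher (Krt6a and Krt6b) and 3 lower (Krt78, Krt1 and Krt7, the last below background at 24 h). Over all genes compared the shares were 2.47% higher and 2.25% lower, and the numbers here are too small for more than naming the members. Krt6a, Krt6b, Krt1 and Krt78 lie in the same cluster and differed in opposite directions.

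**Figure D2:**
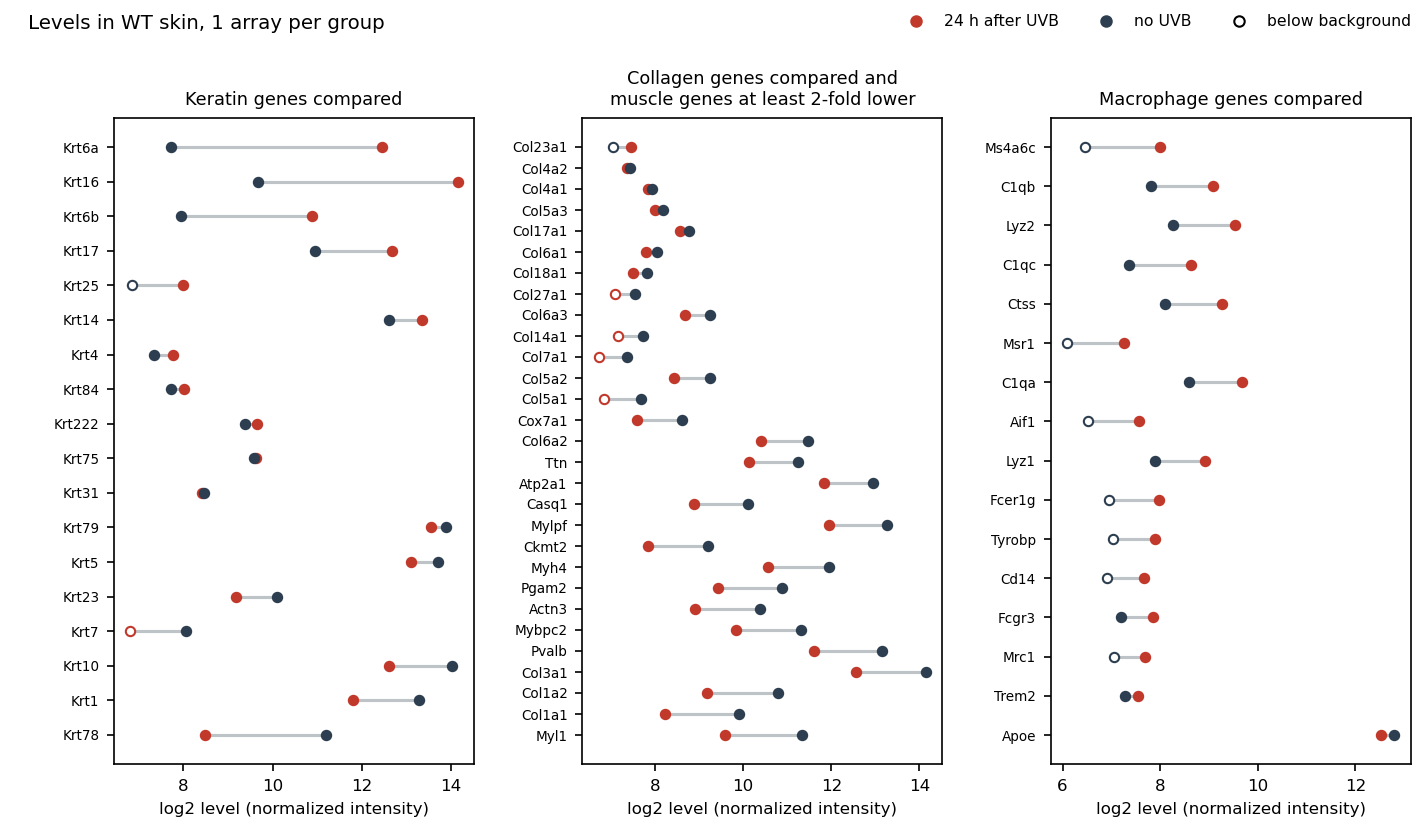
Log2 normalized intensity on the array 24 h after UVB (red) and on the unirradiated array (dark), 1 array per group, for the keratin genes, for the collagen genes with the muscle genes at least 2-fold lower, and for the macrophage genes. Open circles are below background. Krt6a spans 12.45 against 7.72 and Krt78 the opposite way, 8.49 against 11.19, the collagen and muscle points lie to the left at 24 h except Col23a1, and 15 of the 16 macrophage genes lie to the right.

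The Sprr genes, whose small proteins crosslink the cornified envelope and are made in quantity by stressed epithelia, were mostly higher. Of the 11 compared members 10 passed 2-fold on the higher side and 0 on the lower, against 2.47% and 2.25% of all genes compared. Of the 5 above background on both arrays 4 were higher, against 1.21% of all such genes. Sprr2h had a log2 level of 11.48 at 24 h and 8.01 without UVB, 11.1-fold higher. Sprr1b (12.68 against 9.77) was 7.52-fold higher and Sprr1a (12.51 against 10.43) 4.23-fold. Sprr2b was 3.18-fold higher (9.69 against 8.02), while Sprr4 was 1.69-fold higher (9.34 against 8.58). The other 6 were below background without UVB, so the filter fixed their direction and only a bound can be given. Sprr2f (10.39 at 24 h) was at least 10.4-fold higher, Sprr2e (10.16) at least 8.86-fold and Sprr2i (9.76) at least 6.71-fold. The bounds of Sprr2g, Sprr2d and the pseudogene Sprr2j-ps were 3.93-fold, 3.8-fold and 2.31-fold. These bounds set the bright value against the lowest level of a named probe above background on the unirradiated array (log2 7.01), or the dim probe's own value where higher. Here and below, a gene with a bound under 2-fold is counted by its log2 difference and is not shown to be 2-fold different. Sprr2 genes are closely related in sequence, so part of a probe's signal may come from its neighbours, which was not tested.

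The late cornified envelope (Lce) genes of the same complex parted by subfamily. All 5 Lce3 genes, a group known from human skin to be induced by barrier injury, were at least 2-fold higher, but 3 of them were below background without UVB. Lce3c had 11.14 at 24 h and 8.87 without UVB (4.82-fold) and Lce3b 8.63 and 7.18 (2.73-fold). The bounds were 4.14-fold for Lce3a, 3.48-fold for Lce3f and 3.08-fold for Lce3e. Of the 11 Lce1 genes, which belong to normal differentiation, 10 were below 0 and all 11 were above background on both arrays (median -0.64). Only Lce1m passed 2-fold among them, with 9.94 at 24 h and 12.14 without UVB, 4.6-fold lower. The other Lce1 genes ran from -0.83 (Lce1c) to 0.07 (Lce1f), and close copies among them may share signal. Lce6a was 2.66-fold lower (7.57 against 8.98). In Xpa mutant skin at 24 h the Lce1 log2 levels lay lower than in WT skin of that time, for example 7.17 for Lce1c (10.38 in WT) and 7.39 for Lce1m (9.94 in WT). With no unirradiated mutant array here, that gap cannot be assigned to UVB.

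Along the epidermal differentiation complex, 46 of 95 genes were compared. Of these, 18 (39.1%) were at least 2-fold higher and 4 (8.7%) lower, against 2.47% and 2.25% of all genes compared. But 11 of the 18 were below background without UVB, so the filter fixed their direction. Of the 35 genes above background on both arrays 7 were higher and 4 lower, against 1.21% and 1.24% of all such genes. Of the 18, 10 are Sprr genes, 5 are Lce3 genes, and the other three are S100a8, S100a9 and Rptn. The 4 lower genes were Lor, Lce6a, Lce1m and Flg2. Apart from S100a8, S100a9 and Rptn, the genes at least 2-fold higher stood in 2 runs of neighbours, the Sprr genes and the Lce3 genes, with Lce1 genes between them. The S100 genes at the edges were under 2-fold except S100a8 and S100a9.

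**Figure D3:**
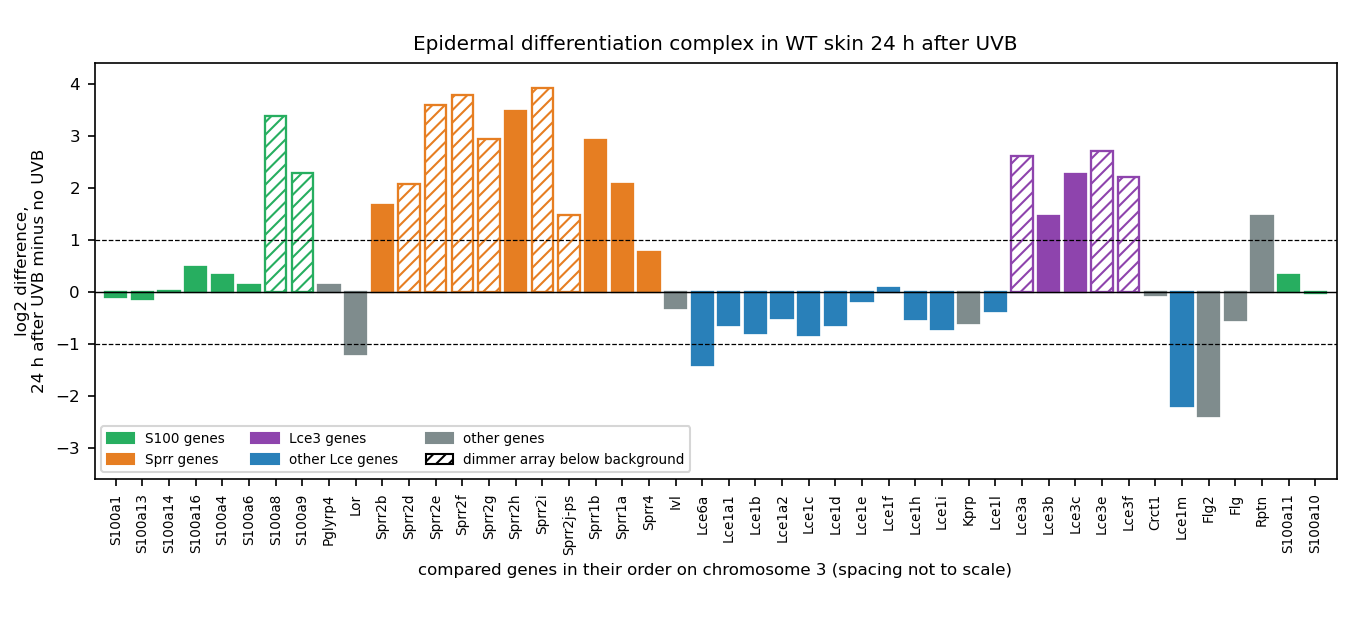
Bars give the log2 difference (24 h after UVB minus no UVB) of the 46 compared genes of the epidermal differentiation complex, in their order along chromosome 3. Hatched bars are genes whose dimmer array was below background, and dashed lines mark 2-fold. The Sprr genes other than Sprr4 (0.76) and the Lce3 genes stand above 1, the Lce1 genes lie between -2.2 and 0.07, and Flg2 (-2.4) and Rptn (1.45) point in opposite directions.

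Among filaggrin, loricrin and other cornified layer genes, 22 were compared, all above background on both arrays, with 2 higher, 3 lower and a median of -0.18. Over all genes above background on both arrays 1.21% were higher and 1.24% lower. Flg2, a filaggrin relative, had 8.05 at 24 h and 10.44 without UVB, 5.26-fold lower. Lor, which encodes loricrin, the main envelope protein, was 2.28-fold lower (9.64 against 10.83), and Ppl, the envelope scaffold periplakin, 2.11-fold lower (8.87 against 9.95). Rptn, a fused-type S100 protein like Flg2, was 2.74-fold higher (9.15 against 7.69) and Cnfn, which encodes cornifelin, 2.12-fold (10.66 against 9.58). Flg itself (12.28 against 12.82) and Ivl, involucrin (7.3 against 7.61), were under 2-fold. The layer's genes therefore did not differ in a single direction.

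Genes of the lipid barrier and of cell contacts gave smaller differences. Of 20 barrier lipid genes 3 were lower and 0 higher, against 2.25% and 2.47% of all genes (median -0.06). They were the alkaline ceramidase Acer1 (8.16 against 9.23) and the epidermal lipases Lipm (8.16 against 9.24) and Lipk (7.3 against 8.36), at 2.1-fold, 2.1-fold and 2.09-fold lower. Without background correction these were under 2-fold (-0.93, -0.96 and -0.87). The epidermal lipoxygenase Alox12e had 9.08 without UVB and was below background at 24 h, at least 4.08-fold lower. Of 22 desmosome, tight and gap junction genes 2 were higher and 2 lower, against 2.47% and 2.25% of all genes (median -0.07). The connexin genes Gjb5 and Gjb2 differed in opposite directions, Gjb5 2.22-fold lower (7.36 against 8.51) and Gjb2 at least 2.02-fold higher (8.03 at 24 h). The tight junction gene Cldn9, outside that list, was 6.67-fold higher (11.42 against 8.68).

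Secreted proteases and their inhibitors differed gene by gene. Klk6, a kallikrein-related serine protease, had 12.07 at 24 h and 8.91 without UVB, 8.92-fold higher. Klk10 was 3.51-fold (10.11 against 8.3) and Klk13 3.43-fold (9.59 against 7.81) higher, while Klk7, which sheds cornified cells, was 1.65-fold higher (11.4 against 10.67). The cystatin gene Cstdc6 was 2.89-fold higher (10.64 against 9.11). Of 20 serpins and other protease inhibitors 3 were higher and 1 lower, against 2.47% and 2.25% of all genes (median 0.11). They were Serpina3n (at least 2.22-fold), Serpinb6c (2.03-fold, but a log2 difference of 0.88 without background correction) and Serpinb11 (at least 1.74-fold) on the higher side, and Serpinb7, 2.24-fold lower (7.69 against 8.86), on the other. Serpina3n and Serpinb11 were below background without UVB and could only be higher. Of the 17 above background on both arrays 1 was higher and 1 lower, against 1.21% and 1.24% of all such genes. The matrix protease gene Mmp3 was at least 2.41-fold higher (8.28 at 24 h) and the only one of 13 matrix proteases, Timps and urokinase genes past 2-fold.

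Alarmins, proteins released by injured epithelium, were bright at 24 h for a few members only. Of 16 alarmin and antimicrobial genes compared 5 were higher and 0 lower, but 4 of the 5 were below background without UVB and could only be higher. Of the 11 above background on both arrays 1 was higher, against 1.21% of all such genes. Slpi, an inhibitor of neutrophil elastase, had 9.89 at 24 h and was below background without UVB, at least 7.36-fold higher. S100a8 (9.48 at 24 h) and S100a9 (9.2), the subunits of calprotectin, had bounds of 5.54-fold and 4.58-fold, and Saa3, an acute phase protein, 3.37-fold. Chil1, a chitinase-like protein, was 2.74-fold higher (9.85 against 8.39). The beta-defensin genes stayed under 2-fold, from Defb14 at 0.87 to Defb4 at -0.62. S100a8 and S100a9 are also made by neutrophils. Of 18 neutrophil genes on the array 16 were below background on both arrays or masked, and the 2 compared, Hdc and Padi4, were under 2-fold. The part of neutrophils in the alarmin values was not tested.

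Macrophage genes were higher as a group. Of the 9 members above background on both arrays 6 were at least 2-fold higher and 0 lower, against 1.21% higher among all such genes, with a median of 1.07. Over all 16 compared 10 passed 2-fold (62.5%, against 2.47% of all genes), and 3 without background correction. C1qa, C1qb and C1qc, the chains of complement C1q, made by macrophages, had 9.67, 9.09 and 8.63 at 24 h, against 8.6, 7.81 and 7.37 without UVB, or 2.1-fold, 2.43-fold and 2.4-fold higher. The lysozyme gene Lyz2 was 2.41-fold higher (9.54 against 8.27), Lyz1 2.03-fold (8.92 against 7.9) and Ctss, a lysosomal protease, 2.23-fold (9.27 against 8.11). Fcgr3 and Trem2 were 1.58-fold and 1.21-fold higher, and Apoe, which many skin cells make, 1.2-fold lower. Those under 2-fold without background correction were C1qa, C1qc and Lyz1 (0.99, 0.95 and 0.86) and all 4 genes that were below background without UVB, Ms4a6c, Fcer1g, Msr1 and Aif1. The bounds of these 4 lay between 1.18-fold and 1.97-fold, so they are not shown to be 2-fold higher. The defining genes Adgre1, Itgam and Cd163 were below background on both arrays or masked. The summed level of the compared genes was 11440 normalized intensity units at 24 h and 9799 without UVB, most of it Apoe. So 6 genes differed by a similar size, while much of the list was too dim to read.

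Other leukocyte and vascular lists differed less. Of 10 Langerhans cell and MHC class II genes, 10 endothelial genes and 6 mast cell genes, 0 passed 2-fold, with medians of 0.08, -0.04 and -0.11. Of 6 T cell genes 1 was lower, Cd3g, below background at 24 h (at least 2.01-fold). A T cell list with only 6 readable genes says little about T cells at this signal.

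Most chemokine genes on the array were below background on both arrays or masked. Several others were above background at 24 h but not without UVB. Of 9 CC chemokine genes 5 were higher and 1 lower, against 2.47% and 2.25% of all genes, and 3 were higher without background correction. Of the 4 above background on both arrays 1 was higher and 1 lower, against 1.21% and 1.24% of all such genes. Ccl6, a chemokine of myeloid cells, was 2.75-fold higher (9.4 against 7.94). Ccl7, Ccl8, Ccl9 and Ccl20 were below background without UVB and could only be higher. Ccl8 was at least 2.18-fold higher. Ccl7, Ccl9 and Ccl20 had bounds of 1.93-fold, 1.87-fold and 1.43-fold, so these genes are not shown to be 2-fold higher. Ccl27a, the keratinocyte chemokine that attracts skin-homing T cells, had 10.03 at 24 h and 11.83 without UVB, 3.46-fold lower. It differed in the opposite direction to Ccl6. Of 8 CXC chemokine genes 1 was higher (Cxcl1, at least 2.52-fold, 8.35 at 24 h) and 1 lower (Cxcl15, at least 1.43-fold). In WT skin at 3 h the log2 levels of Ccl7 (9.28) and Ccl20 (9.21) were above those at 24 h (7.96 and 7.52). The 3 h level of Ccl6 (8.5) was below that at 24 h (9.4). Levels at 3 h and 24 h lay closer for Cxcl1 (8.72 and 8.35), Ccl8 (7.77 and 8.13) and Ccl9 (7.85 and 7.92). Among 17 other cytokine and mediator genes Il4ra, a receptor chain for IL-4 and IL-13, was past 2-fold (at least 2.26-fold higher), and of 10 IL-1 and IL-36 family genes 0 were. Ctf1, which encodes the IL-6 family cytokine cardiotrophin, was 9.88-fold higher (11.22 against 7.91), and Il20rb, a receptor chain for IL-20 family cytokines, was lower by 2 probes (log2 differences of -1.12 and -1.56).

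The genes of growth signalling and early transcription were mostly near the unirradiated level. The immediate-early list of 16 genes had a median of 0.18, with 2 members past 2-fold, both higher. Junb, a Jun subunit of AP-1, was at least 3.03-fold higher (8.61 at 24 h) and Ier3, a survival gene, 2.26-fold (9.37 against 8.19). Over time Junb was below background without UVB, 9.35 at 3 h and 8.61 at 24 h. Of 9 genes of the EGF receptor family and its ligands 2 were higher, the ligands Hbegf (at least 2.3-fold) and Areg (at least 1.26-fold), and the receptor genes Egfr and Erbb3 were 1.34-fold and 1.82-fold lower. Erbb4 was 1.09-fold higher, and Erbb2, below background at 24 h, at least 1.25-fold lower. Egfr, Erbb3 and Erbb4, above background on both arrays, were thus under 2-fold. Both ligands were below background without UVB, and the other listed ligand genes on the array were below background on both arrays or masked. Id1, an inhibitor of helix-loop-helix factors, was 2.04-fold higher (8.21 against 7.18), and under 2-fold without background correction (0.85).

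p53 targets were read in part. Of the 20 above background on both arrays 3 were at least 2-fold higher and 0 lower, against 1.21% higher among all such genes, with a median of 0.19. Over all 25 compared 6 were higher (24.0%, against 2.47% of all genes), and 2 without background correction. Sfn, which encodes the arrest protein 14-3-3 sigma of keratinocytes, was 2.46-fold higher (12.72 against 11.43). Plk2 was 2.11-fold (8.96 against 7.88) and Cdkn1a, the cyclin-dependent kinase inhibitor p21, 2.1-fold higher (10.93 against 9.86). Without background correction Plk2 (0.98), Aen (0.74), Dcxr (0.87) and Sesn2 (0.81) were under 2-fold, and all but Plk2 of these were below background without UVB. Aen, Dcxr and Sesn2 could therefore only be higher, with bounds of 1.53-fold, 2.05-fold and 1.43-fold. Aen and Sesn2 are not shown to be 2-fold higher. Gadd45a, Bax and Phlda3 were 1.87-fold, 1.84-fold and 1.68-fold higher. Sesn1, also a p53 target, was 1.86-fold lower (7.5 against 8.4), and Perp, Zmat3 and Ccng1 were within 0.2 of 0. Mdm2, Bbc3, Gdf15 and Fas were below background on both arrays or masked. Over time Cdkn1a was 9.86 without UVB, 10.92 at 3 h and 10.93 at 24 h, and Sfn 11.43, 12.58 and 12.72, so both stood at about the same level at both times after UVB.

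In nucleotide excision repair 19 genes were compared (median 0.16), and the 2 past 2-fold were higher. Gtf2h5, the smallest subunit of the repair and transcription factor TFIIH, had 13.09 at 24 h and 10.7 without UVB, 5.24-fold higher. Ccnh, a cyclin that associates with TFIIH, was at least 1.53-fold higher. It was below background without UVB, so it is not shown to be 2-fold higher. In the authors' normalized intensity table Ccnh was under 2-fold (0.9). The other compared genes stayed under 2-fold. Several genes of the pathway could not be read, among them Xpc, Ddb2, Ercc2, Ercc3 and Ercc5, which were below background on both arrays or masked. Gtf2h5 was thus alone by size among the compared genes of its list.

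Replication and mitosis genes showed a small difference, nearly all of them above 0. Of 29 compared 28 were above 0 and 0 passed 2-fold (median 0.27), where 3684 of all 7318 genes were above 0. Birc5 (8.9 against 7.91), which encodes survivin, was 1.98-fold, Cdk1 (9.08 against 8.17), the mitotic kinase, 1.88-fold, Ube2c 1.85-fold and Rrm2 1.73-fold higher. Proteasome genes were alike. Of 43 compared 41 were above 0 and 0 passed 2-fold (median 0.4, from -0.02 to 0.81), with the catalytic subunit gene Psmb5 1.69-fold higher (9.77 against 9.01). By contrast 31 of 57 cytoplasmic ribosomal protein genes were above 0 (median 0.06), and 26 of 79 mitochondrial respiratory chain genes (median -0.05).

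Stress proteins differed gene by gene. Of 28 heat shock and chaperone genes 1 was higher, the cytosolic chaperone Hsp90aa1 at 2.35-fold (9.9 against 8.67), and Cryab was 1.95-fold higher. Of 28 genes of the ER stress and amino acid response 2 were higher, Sdf2l1 at 2.25-fold (8.65 against 7.48, but a log2 difference of 0.92 without background correction) and Sesn2, at least 1.43-fold. Of 23 metallothionein and NRF2 target genes 1 was higher, the aldo-keto reductase Akr1b8 (at least 2.86-fold), and 1 lower, Mt4, the metallothionein of differentiating epithelium (at least 2.36-fold). Of 16 interferon response genes 0 passed 2-fold, with a median of 0.41 and Bst2 highest among the genes measured on both arrays (1.94-fold). Ifi202b, an interferon-inducible gene outside that list, was 3.35-fold higher (9.31 against 7.57). Of 22 cell death genes 0 passed 2-fold (median 0.39).

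Several collagen genes were lower. Of 17 collagen genes 4 were at least 2-fold lower (23.5%, against 2.25% of all genes) and 0 higher, with 12 above background on both arrays and a median of -0.44 over those. Col1a1 (8.23 against 9.9), Col1a2 (9.18 against 10.8) and Col3a1 (12.55 against 14.15) encode the chains of collagens I and III, the main fibrils of the dermis, and were 3.17-fold, 3.07-fold and 3.04-fold lower. Col6a2 was 2.09-fold lower (10.41 against 11.47). Col4a1 and Col4a2 of the basement membrane and Col17a1 of hemidesmosomes were 1.07-fold, 1.05-fold and 1.15-fold lower. Col7a1 of the same list was below background at 24 h and at least 1.25-fold lower (6.72 against 7.37). The genes of collagens I and III were therefore lower by about the same amount, while Col4a1, Col4a2 and Col17a1 differed little. Over time Col1a1 was 9.9 without UVB, 8.71 at 3 h and 8.23 at 24 h, and Col3a1 14.15, 12.83 and 12.55. Of 34 other matrix genes 3 were lower, against 2.25% of all genes (median -0.29). Of these Sparc, a collagen-binding glycoprotein, was 2.22-fold lower (11.09 against 12.24), and Tnxb and Aspn were below background at 24 h. Fibroblast markers did not share this. Of 12 compared 0 passed 2-fold (median 0.08), and Pdgfra, Vim and Cd34 differed by 0.27, -0.13 and -0.32.

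Genes of skeletal muscle, a thin sheet of which lies under mouse back skin, were lower on the array at 24 h. Past 2-fold were 12 of the 46 compared (26.1%, against 2.25% of all genes), each of them lower and above background on both arrays, and the median was -0.65. The summed level of the compared genes was 60020 normalized intensity units at 24 h and 104200 without UVB. Myl1, a myosin light chain, had 9.58 at 24 h and 11.33 without UVB (3.38-fold lower), and the calcium buffer Pvalb 11.61 and 13.15 (2.91-fold). Mybpc2, Actn3 and Pgam2 were 2.78-fold, 2.77-fold and 2.77-fold lower. Myh4, the myosin heavy chain of fast fibres, was lower by 2 probes (-1.39 and -1.57). Ttn, 2.15-fold lower by its brightest probe, had 3 other probes between -1.16 and 0.52. The respiratory chain gene past 2-fold, Cox7a1, is the form found in muscle (2.05-fold lower, or -0.82 on the log2 scale without background correction). How much muscle a piece of skin carried was not measured, and the part of tissue depth in the collagen, muscle and fat values was not tested. Adipocyte genes had a median of -0.27 over 28 genes, with 1 lower, Pck1 (2.2-fold, 7.61 against 8.75). The adipokine genes Adipoq and Cfd were 1.89-fold and 1.66-fold lower.

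Skin appendages gave mixed values. Of 22 sebaceous gland genes 2 were lower and 0 higher (median 0.08), the fatty acid enzymes Acsbg1 (2.37-fold) and Scd3 (at least 1.88-fold). Elovl3, a fatty acid elongase of the gland, was 1.9-fold higher and its relatives Elovl5 and Elovl6 1.85-fold and 1.66-fold lower. Of 26 sterol and fatty acid synthesis genes 0 passed 2-fold (median 0.01). Of 44 hair genes on the array 30 were below background on both arrays or masked. Most genes on the array could not be read either, with 7318 of 18563 compared. Of 14 compared 1 was higher and 3 lower, all 4 below background on 1 of the arrays. Of 12 circadian clock genes 2 were lower, Tef by 2.2-fold (8.62 against 9.76) and Hlf by at least 1.3-fold, both output genes of the clock. The core clock genes Arntl, Clock and Nr1d1 differed by 0.06, 0.11 and 0.0. Rora was 1.73-fold lower (log2 difference of -0.79, second probe -0.25), and Per3, below background at 24 h, at least 1.49-fold lower. Per1, Per2, Cry1 and Cry2 were below background on both arrays or masked. Sampling hours are not given, so time of day cannot be told apart from UVB.

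**Figure D4:**
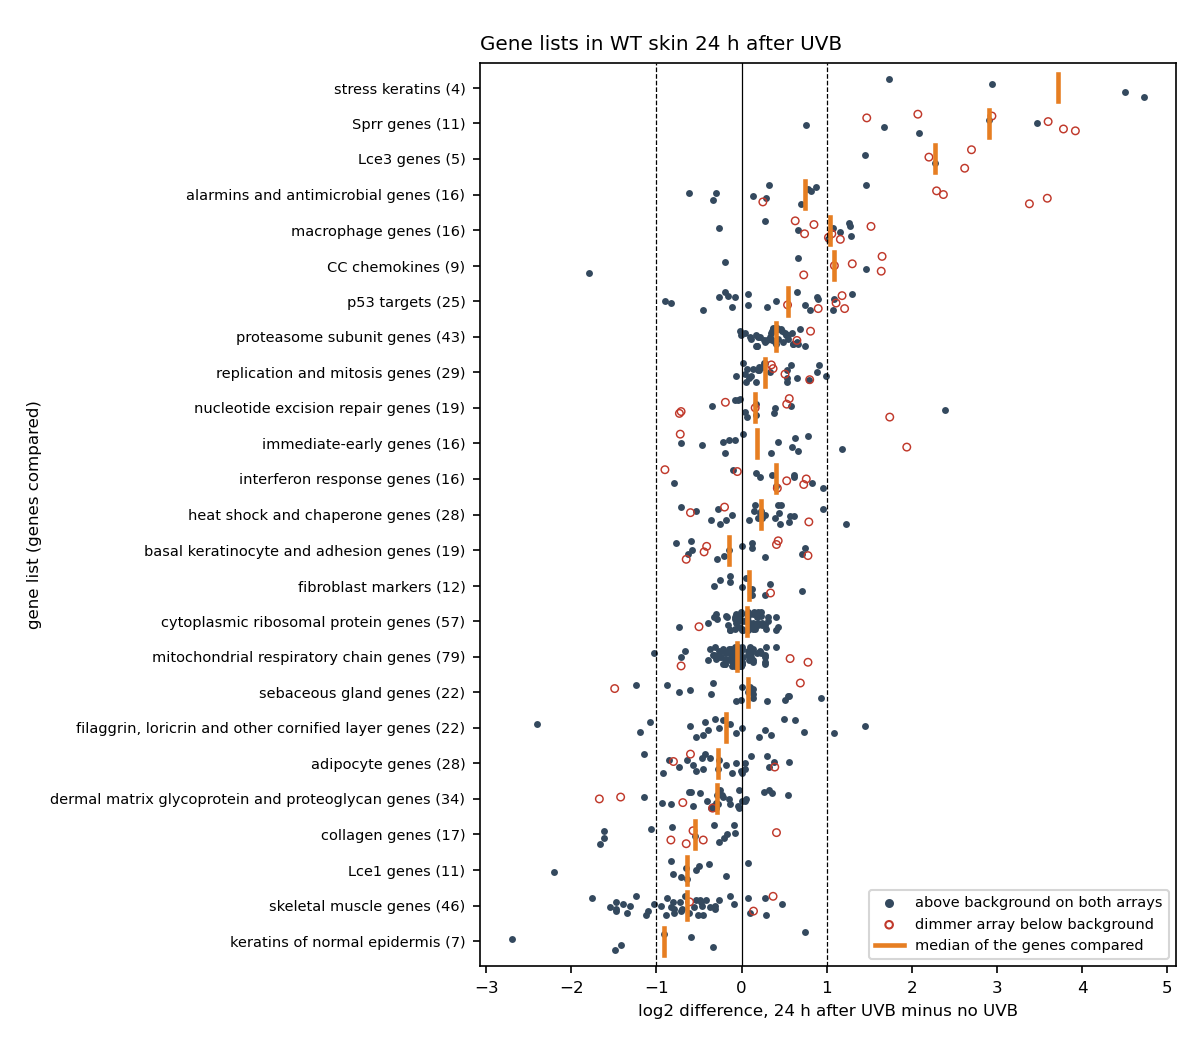
Log2 difference (24 h after UVB minus no UVB) of each compared gene in 25 lists, with the number of genes in brackets and an orange bar at the median. Filled points were above background on both arrays and open points on 1. Medians run from 3.72 for the stress keratins to -0.91 for the keratins of normal epidermis, and the proteasome and replication lists lie to the right of 0 with every point inside 2-fold.

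Several genes outside these lists were also among the most different of those above background on both arrays. Prrt4 was 5.85-fold higher (10.36 against 7.81), Vgll1, a cofactor of TEAD transcription factors, 3.55-fold (9.72 against 7.9), Urah 3.37-fold (12.65 against 10.9) and Sbno2 3.05-fold (10.67 against 9.06). Helt, a helix-loop-helix repressor gene, was 5.8-fold lower (7.5 against 10.04), Gtf3c6 4.11-fold (8.38 against 10.42), Tppp3 3.44-fold (9.18 against 10.96) and Dapl1, a gene of epithelial differentiation, 3.13-fold (10.46 against 12.11). Some single spots need care. Rhpn1 (11.73 against 7.57, 17.9-fold higher) and Usp15 (2.89-fold higher) rest on spots at 24 h with an irregular shape flag, and their levels at 3 h (7.64 and 7.52) and in the mutant at 24 h (7.84 and 7.71) were near the unirradiated ones. Il22ra2 (at least 13.6-fold lower), Olfr1179 (at least 8.81-fold) and Zpld2 (at least 5.51-fold) were bright on the unirradiated array alone. For Il22ra2 and Zpld2 that spot carried an irregular or P flag, and for Olfr1179 a C flag. Spots of other genes named here also carried a C flag, among them Krt78, Col1a1 and Gtf3c6 without UVB. These 5 genes each rest on 1 spot of 1 array.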

How the data were processed

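Total RNA of back skin was extracted with Trizol, labelled with Cy5 and hybridised to one-colour CodeLink arrays, per the labels' protocols. The deposited scanner tables hold spot mean intensity, local background median and quality flags, quantified with CodeLink Expression Analysis 5.0.0.31312, per the file headers. The normexp model of limma 3.58.1 (R 4.3.3, offset 50, all unmasked spots) removed the background. Gene probes were quantile normalized over the 5 arrays and taken to log2. The steps were tested on simulated data. A probe with the low-signal flag was called below background. Of the gene probes, 108 were masked on either array. The platform annotation named 21615 probes by 1 symbol and RefSeq accessions 536 more. Probes with several symbols (681) or none (12135) were not used for genes. The threshold for higher or lower genes was 2-fold. The array number limits precision, with 1 array per group.

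By rule, genes named are members of the lists, the 25 highest and 25 lowest differences among genes above background on both arrays, genes with a bound of at least 3-fold, and the epidermal differentiation complex and keratin genes. Il20rb, Elovl7 and Klhdc4 fall outside it and were named from the check of second probes, after their values were seen. Members and lists were chosen with earlier results of these data known. Background correction, normalization, filters, the authors' normalized intensity table and the probe rule were varied (see the closing section).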

Additional observations from a re-analysis of the deposited data

Results flagged for a closer look

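Probes that could not be named also gave a signal. Of 1810 unnamed probes compared, 44 (2.43%) were at least 2-fold higher at 24 h and 54 (2.98%) at least 2-fold lower than on the unirradiated array. Over all 9971 probes compared the shares were 2.46% and 2.45%, so the unnamed probes lay near the overall share. They were picked out because they lie outside the named genes that the report uses. Of the 1169 above background on both arrays, 5 were higher and 8 lower, with log2 differences between -1.82 and 1.44. Their transcripts are not identified here.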

How the results depend on the processing

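Signal over background limits many values, and with 1 array per group the spread between animals is unknown. Requiring both arrays above background gave 68 higher and 70 lower genes, and no background correction gave 94 and 82, against 181 and 165. Under the other 9 settings the counts lay between 138 and 252 higher and between 123 and 220 lower. Of the 11 settings, 1 was chosen after seeing the data, which left out irregular, P or saturated spots alone (179 higher and 162 lower). Of 539 list medians, 528 stayed within 0.39 of the reported value. The others were the stress keratins (4.73 with only good or low-signal flags), the Sprr genes (2.35 without background correction, 2.08 with both arrays above background, 2.5 without the filter on dim probes and 2.5 with only good or low-signal flags), the alarmins (0.32) and Lce3 genes (1.86) with both arrays above background, the CC chemokines (0.69 without background correction, 0.23 with both above background, 0.31 without the filter) and the macrophage genes (0.61 without the filter). Where a filter changed the list, fewer or more genes entered the median. With only good or low-signal flags 1 stress keratin was left. Of 146 named genes at least 2-fold different, 0 reversed under these settings. Without background correction 33 were under 2-fold, and 14 in the authors' table. Of the 146, 87 were above background on both arrays, a filter that leaves values unchanged. Of 29 replication and mitosis genes, 4 passed 2-fold with plain background subtraction and in the authors' table. With the 75th percentile in place of quantile normalization Col6a2 was at -0.99 and Id1 at 1.0. No paired analysis was possible because each group has 1 array, and no array could be left out.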
